A study of Mus musculus with 9 samples.

Results

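Integrins and laminins were followed across 9 RNA sequencing libraries of mouse colon. The members are the 37 genes, of 21959 in the deposited count table, whose names are those of integrin alpha chains, integrin beta chains or laminin chains. There were 26 integrin and 11 laminin genes. The groups, each of 3 libraries, were wild-type mice without treatment (Blank), wild-type mice with ulcerative colitis induced by dextran sulfate sodium (DSS; the group Model), and wild-type mice with DSS that were given carbon dots made from lotus node charcoal (the group CDs). DSS is a sulfated polysaccharide that injures the colon epithelium when mice drink it. The submitters describe the replicates as biological. The labels used here give no age, dose, schedule or collection day. Chemical injury is the only form of colitis represented, and each library is a mixture of all cell types of the tissue.

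Integrins are receptors for matrix and for other cells, each made of 1 alpha and 1 beta chain. The beta chain Itgb2 and its alpha partners Itgal, Itgam, Itgax and Itgad are made by leukocytes, and Itgb7 pairs with Itga4 or Itgae on lymphocytes that enter or stay in the gut. The pair of Itga6 and Itgb4 anchors epithelial cells through hemidesmosomes to laminin in the basement membrane. Itgb1 pairs with many alpha chains in most cell types. Laminins are heterotrimers of an alpha, a beta and a gamma chain. Lama3 and Lamb3 are chains of laminin-332, the form that epithelial cells lay down, whereas Lama2, Lama4, Lamb1 and Lamc1 are made largely by stromal, muscle and vascular cells. The members were set out in 6 classes on this background.

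Assigned reads per library ranged from 13868864 to 19940300, and members took 0.246% to 0.601% of them. A count of 3 reads, taken as the detection floor, stood for 0.142 to 0.221 CPM (read counts scaled to library size). The 8 epithelial markers of the colon summed to 4555 to 9890 CPM and each had reads in every group. Some libraries stood apart. Sums of 9 pancreatic acinar genes were 6957 CPM in Model 1, 59089 CPM in Model 3 and 258 CPM in CDs 1, against 1.102 CPM or less in the other 6. Tgm4, a transcript of the prostate, reached 602 CPM in Blank 2 and 56.3 CPM in Blank 3, against 0.479 to 2.497 CPM in the others. The 5 B cell markers were highest in their groups in Blank 1 and CDs 1. In bulk tissue, more cells of a type and more RNA per cell cannot be told apart, which holds for every class below.

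Of the 36 members tested, 24 were higher and 1, Itga6, was lower in Model than in Blank at an adjusted p under 0.05 (edgeR, Benjamini-Hochberg adjustment over 14921 genes). Over all genes tested, 24.5% were called higher and 19.6% lower, with a median log2 fold change of -0.03, against 1.06 over the 36 members. The groups did not overlap, with all 3 Model libraries above all 3 Blank libraries, for 25 members, and with all below for 2, Itga6 and Itga11, against 30% and 31% of all genes. Classes differed in their counts. Higher calls covered 5 of 7 leukocyte integrins tested, both platelet integrins, 9 of 11 stromal and shared integrins, 8 of 11 laminin chains, and none of the 5 epithelial integrins. Median log2 fold changes were 1.61, 1.81, 0.86, 1.45 and -0.14 in the same order. Itgad was not tested, with 0 to 7 reads in each library.

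**Figure D1:**
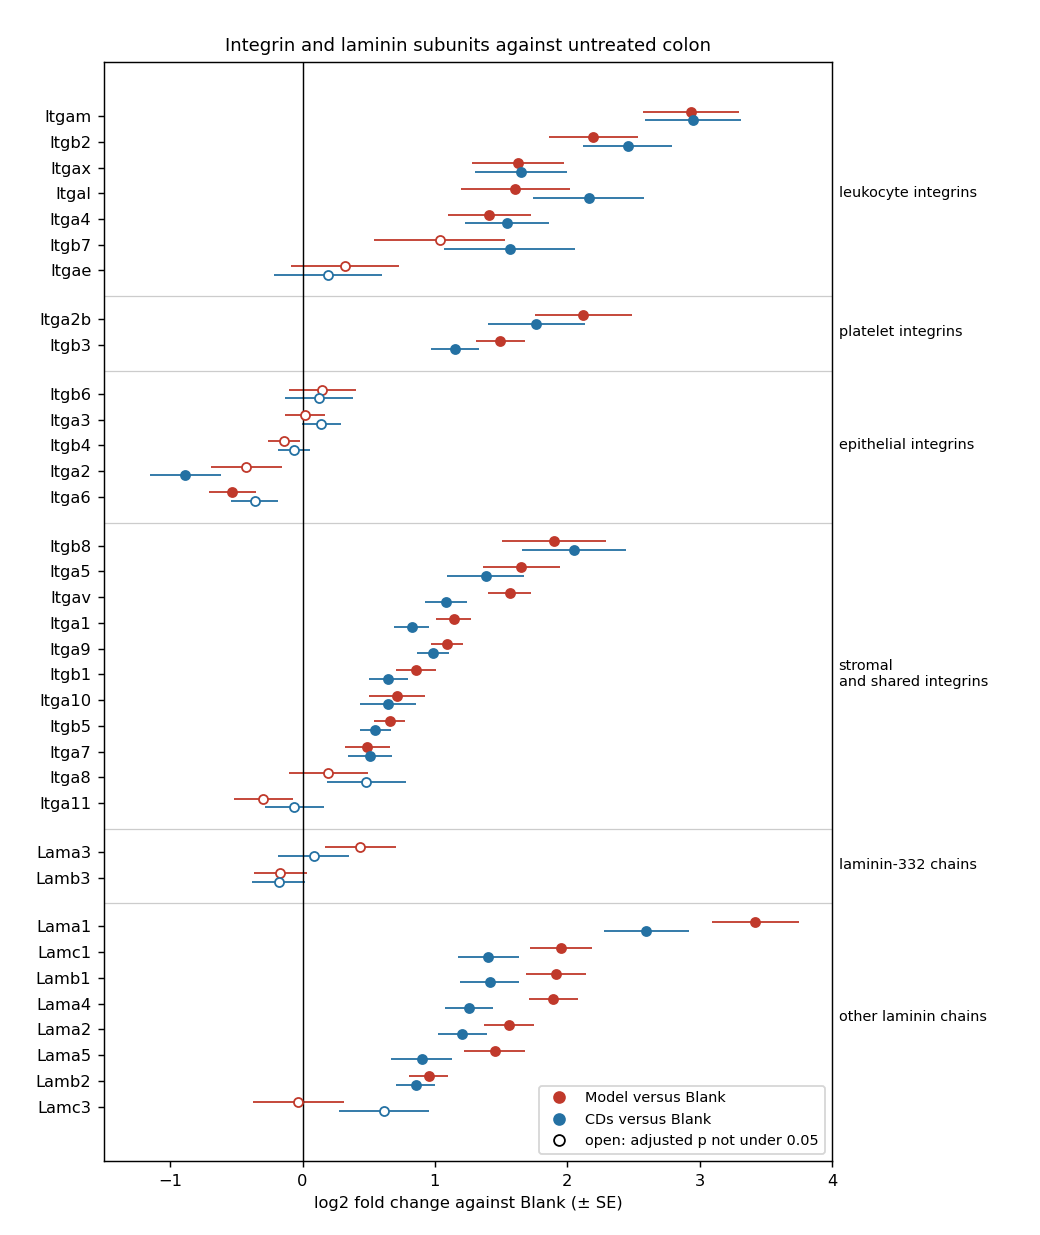
Log2 fold changes (± SE) against Blank for 35 tested members, grouped by class, for Model and for CDs, with open points where the adjusted p was not under 0.05. The leukocyte and platelet integrins and the laminin chains other than laminin-332 lie mostly to the right of 0, and the epithelial integrins lie near or left of 0.

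Among leukocyte integrins, Itgb2, its alpha partners Itgam, Itgax and Itgal, and Itga4 were higher in Model than in Blank. Itgb2 (ENSMUSG00000000290, chromosome 10, 77366086 to 77401542), the shared beta chain of that family, was at 30.3, 15.3 and 14.4 CPM (Blank), 70.8, 105 and 99.3 CPM (Model) and 152, 89.2 and 88.4 CPM (CDs), in the order of libraries 1, 2 and 3. Positions are as deposited, with no genome build given. Every Model and CDs library was above every Blank library, and CDs 1 was the highest of the 9. Its log2 fold change in Model was 2.20 ± 0.34 (adjusted p = 0.0014, edgeR; SE in all such values). Itgam, the alpha chain of the complement receptor Mac-1 of neutrophils and macrophages, was at 9.06, 6.44 and 7.08 CPM (Blank), 33.1, 85.8 and 53.9 CPM (Model) and 71.1, 62.7 and 40.9 CPM (CDs). Its groups Blank and Model did not overlap, and Model 2 was highest. The difference was 2.94 ± 0.36 on the log2 scale, a 7.66-fold rise (adjusted p = 5.68e-04, edgeR).

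Itgax, an alpha chain of dendritic cells and some macrophages, was at 15.9, 11.2 and 12.1 CPM (Blank), 38.95, 23.8 and 58.9 CPM (Model) and 55.8, 29.98 and 37.6 CPM (CDs), and Model 2 was the lowest of the Model libraries. Its log2 fold change was 1.63 ± 0.35 (adjusted p = 0.00603, edgeR). Without Model 1, Model 3 and CDs 1 it was 0.86, with Model 2 as the only Model library. Itgal, the alpha chain of the lymphocyte receptor LFA-1, was at 25.4, 13.02 and 10.6 CPM (Blank), 38.01, 50.7 and 61.1 CPM (Model) and 113, 44.7 and 61.98 CPM (CDs). CDs 1 stood well above the other CDs libraries. The log2 fold change was 1.61 ± 0.41 in Model (adjusted p = 0.0137, edgeR), and the call was lost without Blank 2, or without both Blank 2 and Blank 3, when it was 0.98. Without both, Itgb2 was at 1.61.

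The gut homing chains were less alike. Itga4, which pairs with Itgb1 or Itgb7, was at 54.4, 37.8 and 34.4 CPM (Blank), 92.1, 107 and 138 CPM (Model) and 181, 75.3 and 114 CPM (CDs). Blank lay below all other libraries, CDs 1 was highest, and Itga4 rose by 1.41 ± 0.31 on the log2 scale in Model (adjusted p = 0.00758, edgeR). Itgb7 was at 19.2, 6.24 and 6.04 CPM (Blank), 17.99, 20.4 and 26.5 CPM (Model) and 49.8, 22.8 and 20.9 CPM (CDs). Blank 1 lay between the lower Model libraries, and CDs 1 was far above the rest. Its log2 fold change was 1.04 ± 0.49 in Model (adjusted p = 0.116, edgeR) and 1.56 ± 0.50 in CDs against Blank (adjusted p = 0.0372). Leaving out Blank 1 gave 1.82 in Model (adjusted p = 0.0140) and 2.35 in CDs against Blank. The call in CDs was lost without Blank 2, Blank 3, Model 3, CDs 1 or CDs 2. Itgae, the alpha chain of lymphocytes within the epithelium, was at 7.07 ± 2.66 CPM (Blank), 8.87 ± 2.33 CPM (Model) and 8.08 ± 4.55 CPM (CDs) (mean ± SD, n = 3) and its groups overlapped, with a log2 difference of 0.32 ± 0.41 in Model (adjusted p = 0.548, edgeR).

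Leukocyte markers called higher in Model than in Blank were 7 of 7 neutrophil, 7 of 7 macrophage, 1 of 6 T cell and 3 of 5 B cell markers (edgeR). Over all genes, 24.5% were called higher. The sum of 7 neutrophil markers was 92.7, 80.4 and 75.04 CPM (Blank), 402, 2524 and 587 CPM (Model) and 1217, 555 and 563 CPM (CDs). Most of the Blank sum came from 1 of the 7, Ly6g, at 85.9, 75.6 and 70.7 CPM, which rose 3.07-fold in Model. The 7 macrophage markers summed to 229 to 279 CPM (Blank), 864 to 1242 CPM (Model) and 928 to 1105 CPM (CDs). The 6 T cell markers summed to 37.1, 13.6 and 16.1 CPM (Blank), 46.2, 52.1 and 62.4 CPM (Model) and 119.9, 50.5 and 58.6 CPM (CDs), and the 5 B cell markers to 83.8, 33.8 and 44.8 CPM (Blank), 94.9, 152 and 148 CPM (Model) and 328, 105 and 128 CPM (CDs). All 7 tested leukocyte integrins were highest within Blank in Blank 1 and highest within CDs in CDs 1. These libraries also led their groups in the neutrophil, macrophage, T cell and B cell sums. The neutrophil sum was highest in Model 2, as was Itgam. The part of these markers in the integrin values was not tested.

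**Figure D2:**
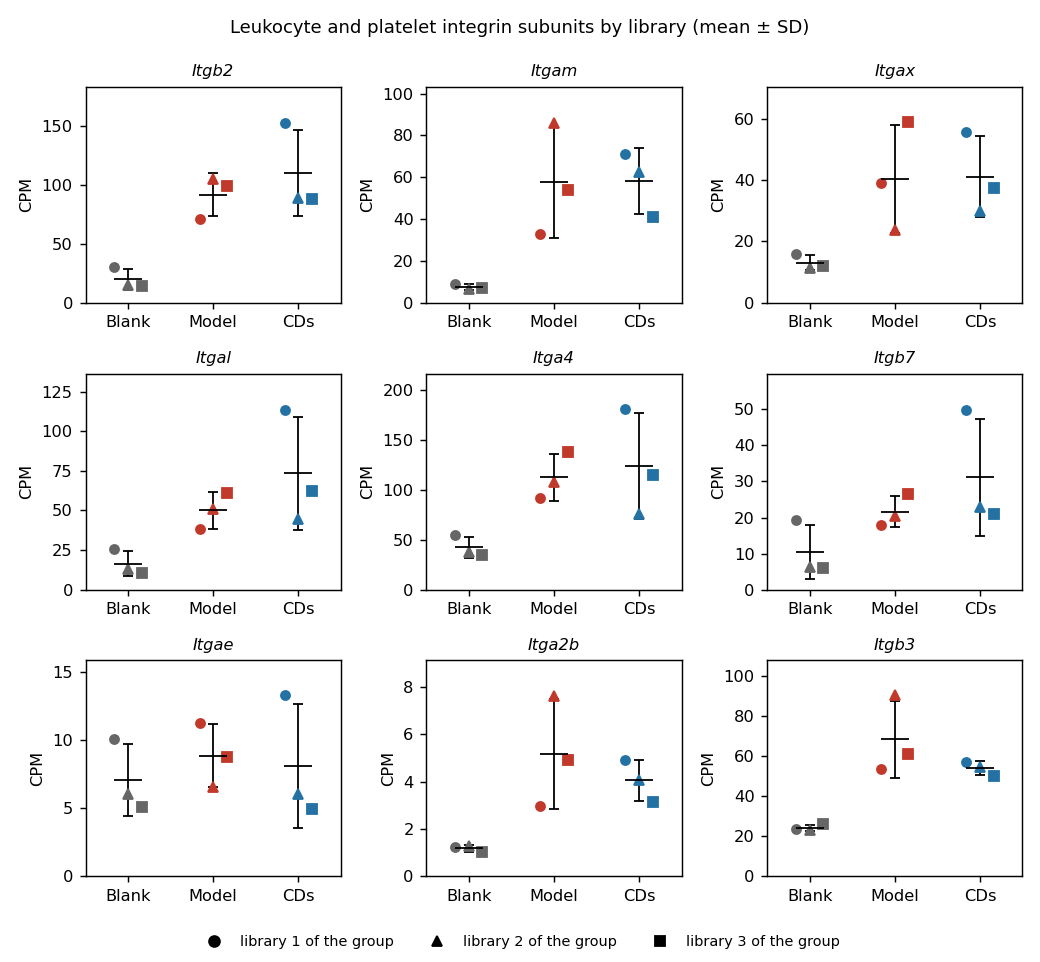
CPM of 7 leukocyte and 2 platelet integrin subunits in each library (points, shaped by library number) with the mean ± SD of the 3 libraries in each group. For Itgb2, Itgam, Itgax, Itgal, Itga4, Itga2b and Itgb3 every Model and CDs point lies above every Blank point, whereas Itgae and Itgb7 overlap.

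Itgam and Itgax are neighbours that were both called higher in Model than in Blank, so the start regions of both are shown. Within Model their order differed, with Model 2 highest for Itgam and lowest for Itgax. In the deposited coordinates, for which no genome build is given, Itgam (ENSMUSG00000030786, chromosome 7, 127661812 to 127717663) ends 11.1 kb before Itgax (ENSMUSG00000030789, chromosome 7, 127728719 to 127749829), both on the plus strand of that chromosome. The 250 bases before each start, from RefSeq on GRCm38.p6, plus strand, are given 5′ to 3′, with GAGGAA on either strand in capitals. GAGGAA is a core sequence that factors of the ETS family recognise, among them PU.1, a regulator of myeloid genes.
Itgam, chr7:128062390-128062639: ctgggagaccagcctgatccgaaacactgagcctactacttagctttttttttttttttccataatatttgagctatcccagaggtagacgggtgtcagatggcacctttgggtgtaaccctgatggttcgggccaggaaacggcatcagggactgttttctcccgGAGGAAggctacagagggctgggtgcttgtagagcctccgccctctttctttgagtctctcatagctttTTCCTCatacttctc
Itgax, chr7:128129300-128129549: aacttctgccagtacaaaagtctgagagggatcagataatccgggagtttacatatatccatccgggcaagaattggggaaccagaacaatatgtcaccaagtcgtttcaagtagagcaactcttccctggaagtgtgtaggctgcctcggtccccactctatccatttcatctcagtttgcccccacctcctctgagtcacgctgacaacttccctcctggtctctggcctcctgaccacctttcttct
The Itgam window held 2 matches, 1 on each strand, between 10 and 84 bases before the start, and the Itgax window held 0. RefSeq windows were found for 23 of the 37 members, some with more than 1 start. Of their 26 windows 13 held GAGGAA on either strand, against 23.3% of all 32851 windows of that length. The AP-1 sequence TGANTCA, searched on both strands, was in 1 of the 26, that of Itgax, against 6.75% of all, and no match overlapped a GAGGAA match. These matches are letters in a window and were not tied to binding.

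The chains classed as platelet integrins were both higher in Model, though Itgb3 is not limited to platelets. Itga2b, the alpha chain of the platelet fibrinogen receptor, was at 1.22, 1.302 and 1.03 CPM (Blank), 2.97, 7.59 and 4.89 CPM (Model) and 4.92, 4.06 and 3.16 CPM (CDs), low in all libraries but without overlap between Blank and the other groups. It rose by 2.12 ± 0.37 on the log2 scale in Model (adjusted p = 0.00234, edgeR). Itgb3, its beta partner, which also pairs with Itgav in vessels and osteoclasts, was at 23.6, 23.1 and 26.1 CPM (Blank), 53.6, 90.3 and 61.1 CPM (Model) and 57.2, 54.5 and 50.3 CPM (CDs), with Model 2 highest. The rise was 1.495 ± 0.18 on the log2 scale (adjusted p = 5.34e-04, edgeR). Per kilobase of gene length, Itga2b was 0.0428 to 0.0931 times the level of Itgb3 across the 9 libraries. The sum of 6 platelet and megakaryocyte markers was 13.7, 17.9 and 15.2 CPM (Blank), 27.3, 97.5 and 35.8 CPM (Model) and 24.7, 27.9 and 36.7 CPM (CDs), also highest in Model 2. Of its 4 tested genes, 2 were called higher in Model, against 24.5% of all genes. In CDs against Blank 0 of the 4 were called (smallest adjusted p = 0.0775, edgeR), against 21.8% of all genes called higher. The part of this sum in the integrin values was not tested.

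Of the 5 epithelial integrins 0 were called higher, by edgeR, DESeq2 or limma, and 0 were higher at an unadjusted p under 0.05 (edgeR), against 28% of all genes. Itga6 (ENSMUSG00000027111, chromosome 2, 71575960 to 71688760), the laminin receptor chain of hemidesmosomes, was at 369, 385 and 342 CPM (Blank), 301, 206 and 252 CPM (Model) and 349.8, 256 and 248 CPM (CDs). All Blank libraries were above all Model libraries, while CDs 1 overlapped Blank. Its log2 fold change was -0.53 ± 0.18 (adjusted p = 0.0389, edgeR), and the call was lost in the fits without Blank 1, Blank 2, Blank 3, Model 2, Model 3 or CDs 2. Its partner Itgb4 was at 171, 181 and 170.2 CPM (Blank), 185, 142 and 147 CPM (Model) and 159, 158 and 182 CPM (CDs). The 3 groups of Itgb4 overlapped (log2 difference -0.14 ± 0.12 in Model, adjusted p = 0.377, edgeR).

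Itga2, an alpha chain of a collagen receptor of epithelium and platelets, was at 85.9, 56.7 and 94.8 CPM (Blank), 67.3, 48.8 and 60.9 CPM (Model) and 54.8, 27.7 and 46.05 CPM (CDs). Every CDs library was below every Blank library. The log2 difference was -0.42 ± 0.27 in Model (adjusted p = 0.221, edgeR) and -0.89 ± 0.27 in CDs against Blank (adjusted p = 0.03201). That call was lost without Blank 1, Blank 3, Model 3, CDs 2 or CDs 3. Itgb6, the partner of Itgav on epithelial cells, was at 33.7, 47.8 and 44.7 CPM (Blank), 57.5, 34.1 and 48.5 CPM (Model) and 62.1, 36.1 and 39.2 CPM (CDs), with overlapping groups (log2 difference 0.15 ± 0.25 in Model, adjusted p = 0.654, edgeR). Itga3, an alpha chain that binds laminin-332, was at 112 ± 4.92 CPM (Blank), 114 ± 24.5 CPM (Model) and 124 ± 13.5 CPM (CDs), with a log2 difference of 0.02 ± 0.15 in Model (adjusted p = 0.924). The 8 epithelial markers summed to 9890.3, 8589 and 9792 CPM (Blank), 7705, 4763 and 4555 CPM (Model) and 5042, 6945 and 8552 CPM (CDs). Of the 8, 2 were called lower in Model, against 19.6% of all genes (edgeR). At an unadjusted p under 0.05, 7 were lower, against 25% of all genes. All 5 epithelial integrins were highest within Model in Model 1, which also had the highest epithelial sum of that group. Within CDs, 3 of the 5 were highest in CDs 1, which had the lowest epithelial sum of that group. Within Blank, 3 of the 5 were highest in Blank 2, again the library with the lowest sum. The part of the epithelial sum in the values of Itga6 was not tested.

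Among stromal and shared integrins, 9 of 11 were higher in Model. Itgav (ENSMUSG00000027087, chromosome 2, 83554741 to 83637260), an alpha chain that binds fibronectin, vitronectin and latent TGF-beta, was at 99.9, 94.4 and 101 CPM (Blank), 228, 354 and 294 CPM (Model) and 233, 191 and 203 CPM (CDs). All Model and CDs libraries were above all Blank libraries, and Model 2 was highest. It rose by 1.57 ± 0.16 on the log2 scale (adjusted p = 3.34e-04, edgeR), a 2.96-fold rise. Itga9, an alpha chain that binds tenascin and VCAM-1, was at 41.7, 38.9 and 39.7 CPM (Blank), 69.9, 90.8 and 95.9 CPM (Model) and 76.9, 80.2 and 80.9 CPM (CDs). These 3 groups were tight, and the rise was 1.09 ± 0.12 (adjusted p = 3.86e-04, edgeR). Itga1, an alpha chain of a collagen receptor of smooth muscle and mesenchyme, was at 123, 120.0 and 128 CPM (Blank), 228, 319.9 and 271 CPM (Model) and 202, 224 and 232 CPM (CDs) and rose by 1.14 ± 0.13 (adjusted p = 4.67e-04, edgeR).

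Itgb1, the shared beta chain, was the most abundant integrin chain per kilobase and was at 486, 508 and 563 CPM (Blank), 804, 1115 and 906 CPM (Model) and 775, 835 and 830.0 CPM (CDs). Blank lay below both other groups, with a log2 rise of 0.86 ± 0.15 in Model (adjusted p = 0.00248, edgeR). Itga5, the fibronectin receptor chain, was at 56.9 ± 5.24 CPM (Blank), 179 ± 86.95 CPM (Model) and 149 ± 9.42 CPM (CDs), and Model 2 at 276 CPM was the highest library. Its rise was 1.65 ± 0.29 (adjusted p = 0.00257, edgeR), and 2.27 without Model 1, Model 3 and CDs 1. Itgb8, which with Itgav releases active TGF-beta, was at 5.89 ± 1.45 CPM (Blank), 21.9 ± 8.67 CPM (Model) and 24.4 ± 9.74 CPM (CDs) (rise 1.90 ± 0.39, adjusted p = 0.00525). Smaller rises were called for Itgb5, a further partner of Itgav (0.66 ± 0.12), for Itga10, a collagen receptor chain of cartilage with 24 to 60 reads a library (0.71 ± 0.21), and for Itga7, a laminin receptor chain of muscle (0.49 ± 0.17).

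Neither of the last calls held in every fit that left out 1 library. The call of Itga10 was lost without Blank 2, Blank 3, Model 2 or Model 3, and that of Itga7 without Blank 1, Blank 2 or any 1 Model library. Itga8, an integrin chain of smooth muscle and fibroblasts, was at 14.1 ± 2.89 CPM (Blank), 16.2 ± 4.22 CPM (Model) and 19.7 ± 6.62 CPM (CDs), and Itga11, a collagen receptor chain of fibroblasts, at 6.48 ± 1.07 CPM (Blank), 5.28 ± 0.492 CPM (Model) and 6.21 ± 1.48 CPM (CDs). Neither passed the test (adjusted p = 0.617 and 0.2996, edgeR). The sum of 6 smooth muscle markers was 2721 to 3849 CPM (Blank) and 2523 to 3803 CPM (Model), and none of the 6 was called in Model. In CDs 1, CDs 2 and CDs 3 it was 2277, 5612 and 5567 CPM, with CDs 2 and CDs 3 above every Blank and Model library. The 6 fibroblast markers summed to 1757, 2022 and 1772 CPM (Blank), 5057, 11369 and 8591 CPM (Model) and 6129.9, 6249.9 and 5395 CPM (CDs). The sum of 6 endothelial markers was 166 to 178 CPM (Blank), 360.4 to 483 CPM (Model) and 338 to 446 CPM (CDs). Of the fibroblast and of the endothelial markers, 6 of 6 each were called higher in Model, against 24.5% of all genes (edgeR). Their part in the rises of the stromal chains was not tested.

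Neither Lama3 nor Lamb3, the chains of laminin-332 given here, was called in Model with all libraries. Lama3 was at 42.8, 86.5 and 87.3 CPM (Blank), 88.6, 98.7 and 105 CPM (Model) and 88.7, 56.5 and 84.5 CPM (CDs), with Blank 1 low in its group, and its log2 difference was 0.44 ± 0.27 (adjusted p = 0.212). Without Blank 2 and Blank 3 the difference of Lama3 was 1.19 and was called (adjusted p = 0.04496, edgeR), with Blank 1 as the only Blank library. Lamb3 was at 127, 113 and 110.3 CPM (Blank), 126, 97.7 and 87.1 CPM (Model) and 80.9, 93.4 and 134 CPM (CDs) and its groups overlapped (log2 difference -0.17 ± 0.20, adjusted p = 0.513, edgeR). Lama3 over Lamb3, per kilobase, was 0.208, 0.473 and 0.487 in Blank, 0.432, 0.622 and 0.744 in Model and 0.675, 0.372 and 0.387 in CDs, a ratio given with no test. Blank 1 was lowest, and the groups overlapped.

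Outside laminin-332, the chains rose in Model except Lamc3. Lama1 (ENSMUSG00000032796, chromosome 17, 68004254 to 68129642), the alpha chain of laminin-111, an early embryonic form, was at 4.304, 3.91 and 5.23 CPM (Blank), 37.6, 56.3 and 49.96 CPM (Model) and 40.00, 24.4 and 16.8 CPM (CDs). Blank was low in all libraries, and CDs lay between Blank and Model apart from CDs 1, which was above Model 1. The rise was 3.42 ± 0.33 on the log2 scale in Model, a 10.7-fold rise (adjusted p = 2.79e-04, edgeR), the largest log2 fold change among the members. Lama4 (ENSMUSG00000019846, chromosome 10, 38841511 to 38986184), the alpha chain of laminins of vessels, was at 58.97, 62.8 and 59.1 CPM (Blank), 162, 286 and 225 CPM (Model) and 147, 135 and 151 CPM (CDs). Neither Blank nor CDs reached the lowest Model library. Its log2 rise was 1.89 ± 0.18 in Model (adjusted p = 2.86e-04, edgeR).

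Lamb1 and Lamc1, the beta and gamma chains that most stromal laminins share, had log2 fold changes of nearly the same size. Lamb1 was at 129, 129 and 118 CPM (Blank), 315, 611 and 493 CPM (Model) and 385, 304 and 312 CPM (CDs) and rose by 1.92 ± 0.23 on the log2 scale (adjusted p = 4.90e-04, edgeR). Lamc1 was at 116, 112 and 117 CPM (Blank), 290.4, 591 and 456 CPM (Model) and 346, 294 and 272 CPM (CDs) and rose by 1.96 ± 0.23 (adjusted p = 5.18e-04, edgeR). In both, Model 2 was highest and Blank was tight. The start region of Lamb1, RefSeq on GRCm38.p6, plus strand, held 1 GAGGAA match, on the minus strand, and is shown with the match in capitals because Lamb1 rose together with Lamc1.
Lamb1, chr12:31265043-31265292: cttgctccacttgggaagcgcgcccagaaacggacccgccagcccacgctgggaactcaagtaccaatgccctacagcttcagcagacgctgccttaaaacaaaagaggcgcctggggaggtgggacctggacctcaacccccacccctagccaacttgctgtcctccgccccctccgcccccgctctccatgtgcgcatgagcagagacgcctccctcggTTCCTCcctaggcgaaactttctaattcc
The match lay 24 to 29 bases before the start.

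Lama2, the alpha chain of muscle and nerve basement membranes, was at 35.8 ± 4.16 CPM (Blank), 105 ± 27.5 CPM (Model) and 82.6 ± 6.17 CPM (CDs) and rose by 1.56 ± 0.19 (adjusted p = 5.23e-04, edgeR). Lama5, the alpha chain of laminin-511 of epithelial and vessel basement membranes, was at 43.5 ± 1.17 CPM (Blank), 119 ± 44.4 CPM (Model) and 81.2 ± 3.03 CPM (CDs) and rose by 1.45 ± 0.23 (adjusted p = 0.00163, edgeR). Lamb2, the beta chain of mature basement membranes, was at 36.9 ± 2.31 CPM (Blank), 71.4 ± 9.26 CPM (Model) and 66.6 ± 11.5 CPM (CDs) and rose by 0.95 ± 0.14 (adjusted p = 0.00134). Lamc3, a rarer gamma chain, was at 3.12 ± 0.871 CPM (Blank), 3.08 ± 1.06 CPM (Model) and 4.77 ± 1.12 CPM (CDs) (log2 difference -0.03 ± 0.34, adjusted p = 0.95, edgeR). Model 2 was the highest Model library for 6 of the 8 chains, as it was for the fibroblast sum given above. The part of the fibroblast markers in the laminin values was not tested.

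**Figure D3:**
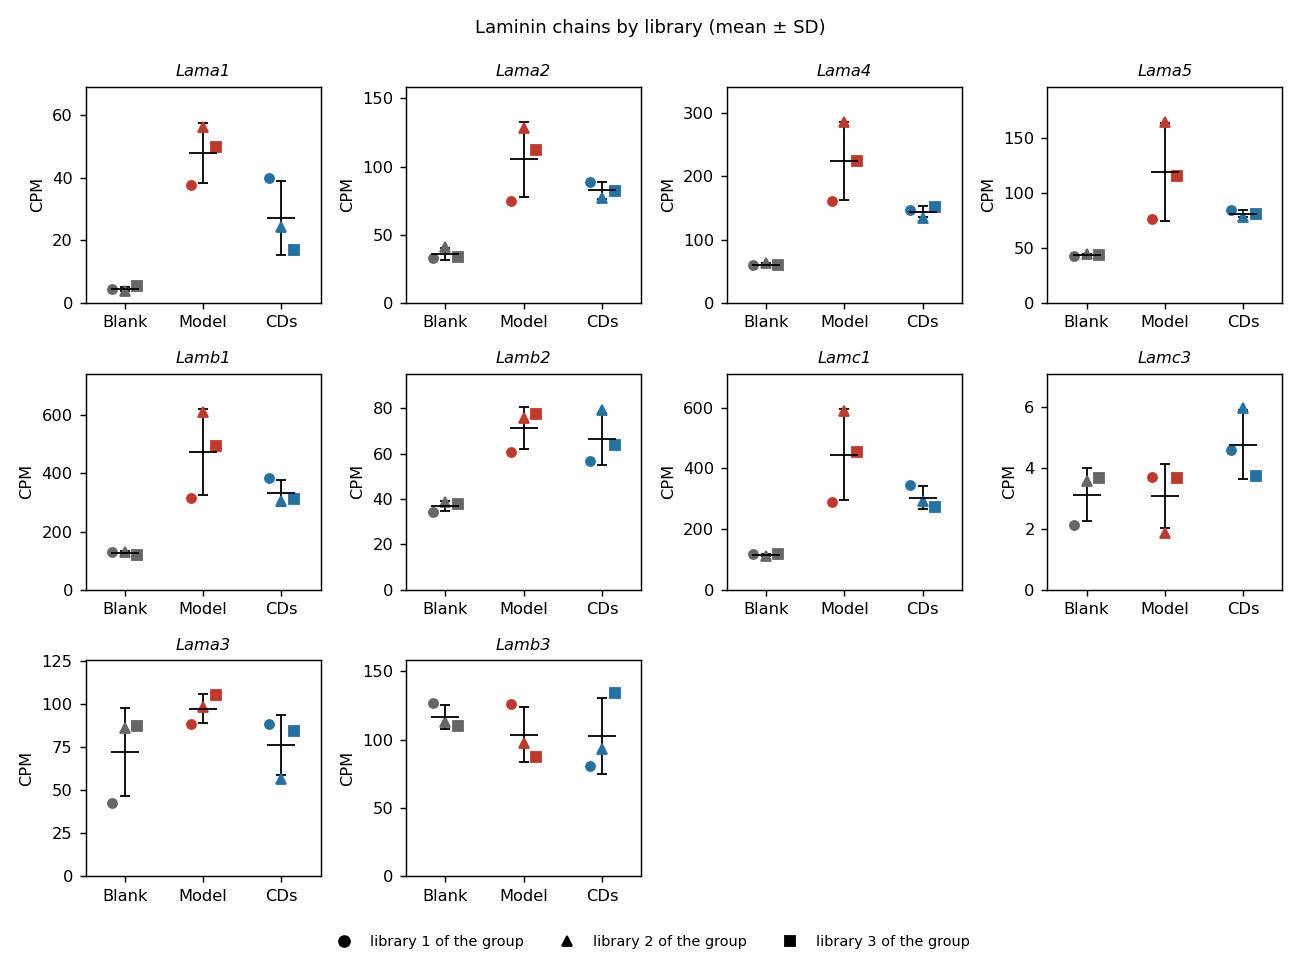
CPM of 10 laminin chains in each library (points, shaped by library number) with the mean ± SD of the 3 libraries in each group. Blank points lie below all Model points for Lama1, Lama2, Lama4, Lama5, Lamb1, Lamb2, Lamc1 and Lama3, and Lamb3 and Lamc3 overlap.

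Relative amounts within each chain type were compared per kilobase of gene length, as descriptions with no test. Among integrin alpha chains, Itga6 held 32.9 ± 2.73% in Blank, 14.7 ± 4.34% in Model and 16.9 ± 1.75% in CDs of the summed level (mean ± SD, n = 3 libraries). Itga5 held 9.49 ± 0.952% in Blank, 18.4 ± 7.03% in Model and 16.7 ± 2.55% in CDs and Itgav 7.53 ± 0.24% in Blank, 14.00 ± 1.54% in Model and 10.6 ± 0.132% in CDs. Itga6 was above Itga5 in every Blank library. In Model the order differed by library, with Itga6 at 19.2% and Itga5 at 12.8% in Model 1, 10.6% and 26.3% in Model 2, and 14.3% and 16.04% in Model 3. Itgb1 held 66.8 ± 3.18% in Blank, 67.9 ± 2.62% in Model and 63.7 ± 4.66% in CDs of the beta chains and was the main beta chain in all groups. The share of Itgb4 was 13.1 ± 0.859% in Blank, 6.81 ± 1.904% in Model and 7.57 ± 0.792% in CDs, and that of Itgb2 3.46 ± 1.58% in Blank, 8.84 ± 0.924% in Model and 11.4 ± 3.39% in CDs.

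Among laminin chains, Lama3 and Lamb3 of laminin-332 held smaller shares in Model. Lama5, a chain of epithelial and vessel basement membranes, held 21.3 ± 2.95% in Blank, 20.7 ± 2.82% in Model and 21.1 ± 1.40% in CDs of the alpha chains. Lama3 held 36.2 ± 8.42% in Blank, 18.98 ± 3.701% in Model and 20.8 ± 3.08% in CDs of the alpha chains, and Lama4 27.9 ± 4.02% in Blank, 37.4 ± 1.297% in Model and 35.3 ± 2.31% in CDs. Lamb3 held 48.5 ± 1.95% in Blank, 21.8 ± 8.296% in Model and 25.8 ± 6.31% in CDs of the beta chains, and Lamb1 34.8 ± 0.792% in Blank, 62.4 ± 9.02% in Model and 55.9 ± 7.33% in CDs. Lamb3 was therefore the leading beta chain of Blank, and Lamb1 that of Model and CDs. A share falls when other chains rise. The CPM of Lamb3 itself overlapped between groups, and that of Lama3 was higher in every Model library than in every Blank library.

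**Figure D4:**
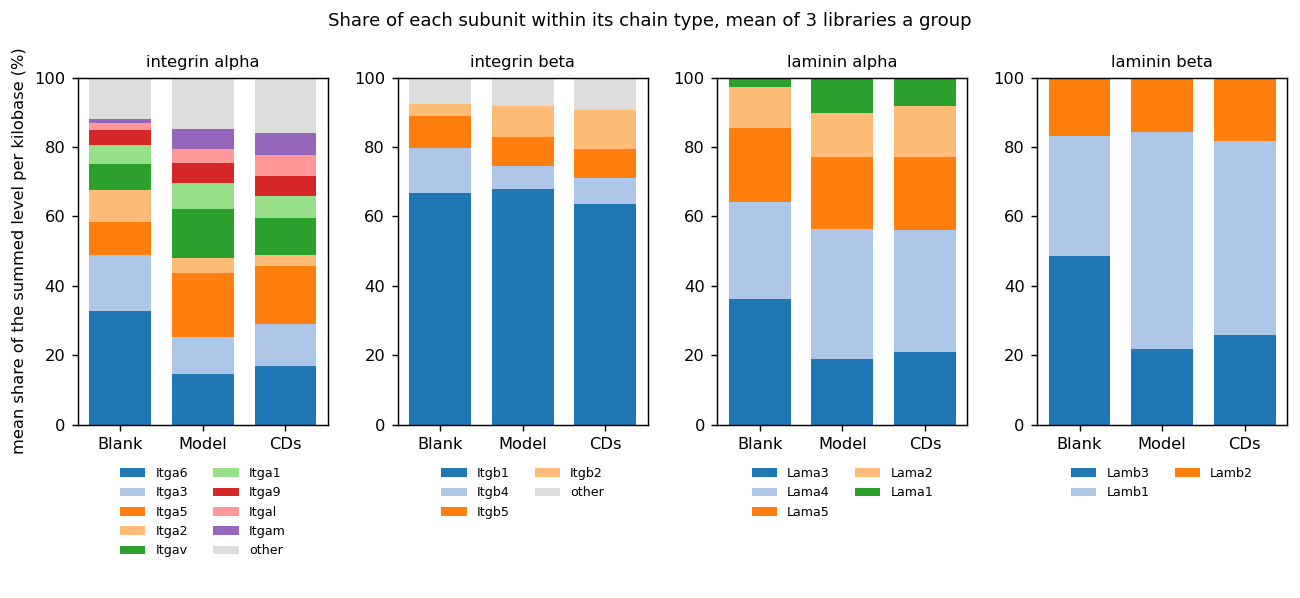
Mean share (%) of each subunit in the level per kilobase summed over integrin alpha, integrin beta, laminin alpha and laminin beta chains, with 1 bar for each group of 3 libraries and minor subunits pooled as other. Lamb3 goes from 48.5% of laminin beta chains in Blank to 21.8% in Model and 25.8% in CDs.

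Ratios between partners were also described without a test. Itga6 over Itgb4 was 1.65, 1.63 and 1.54 in Blank, 1.25, 1.11 and 1.32 in Model and 1.69, 1.24 and 1.05 in CDs per kilobase. All Model values lay below all Blank values, and CDs 1 lay above all Blank values. Itgb6 over Itgav was 0.509, 0.764 and 0.667 in Blank, 0.382, 0.146 and 0.25 in Model and 0.403, 0.286 and 0.292 in CDs, lower in every Model and CDs library than in any Blank library. Itga5 over Itgb1 was 0.0927, 0.087 and 0.0925 in Blank, 0.111, 0.205 and 0.14 in Model and 0.148, 0.156 and 0.149 in CDs, higher in every Model and CDs library. Itgal over Itgb2 was 0.391, 0.394 and 0.341 in Blank, 0.249, 0.224 and 0.286 in Model and 0.345, 0.233 and 0.326 in CDs, with CDs 1 inside the range of Blank.

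**Figure D5:**
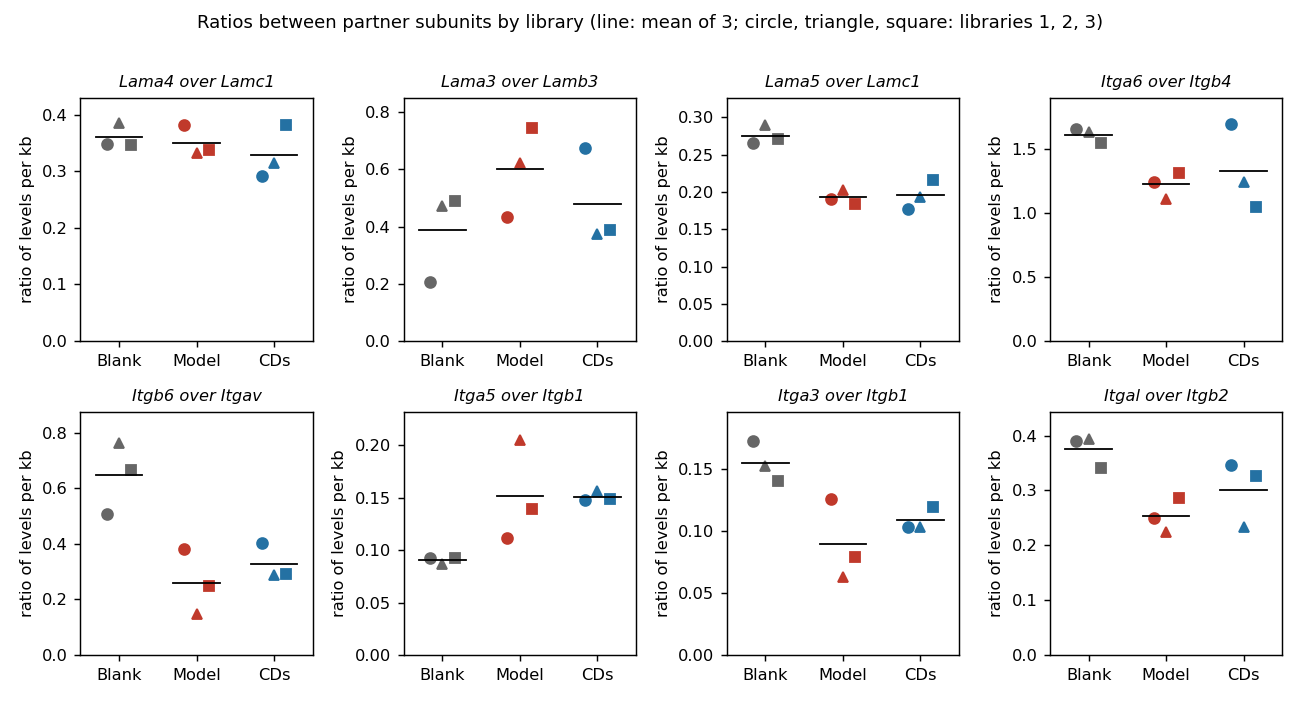
Ratios of levels per kilobase between 8 pairs of partner subunits in each library, with the group mean as a line. Itga5 over Itgb1 is higher in every Model and CDs library than in every Blank library. Itgb6 over Itgav, Itga3 over Itgb1 and Lama5 over Lamc1 are lower in every Model and CDs library than in every Blank library.

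Ligands, adaptors and basement membrane partners were counted from lists. Of 12 integrin ligands tested, 11 were called higher in Model and 0 lower, against 24.5% and 19.6% of all genes. Their median log2 fold change was 2.31. Madcam1, the vessel ligand of Itga4 with Itgb7, rose by 2.91 ± 0.24 (adjusted p = 2.31e-04, edgeR). Vcam1, the vessel ligand of Itga4 with Itgb1, rose by 3.43 ± 0.33, and fibronectin (Fn1), the ligand of Itga5 with Itgb1, by 1.42 ± 0.16. The 3 fibrinogen chains in the list were not tested.

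Of 17 adaptors tested that link integrins to actin, 9 were called higher and 1 lower, against 24.5% and 19.6% of all genes. Of the higher ones, Fermt2 (kindlin-2) was at 1.34 ± 0.14, Tln1 (talin-1) at 0.80 ± 0.11 and Parvb (beta-parvin) at 1.55 ± 0.24. The lower one was Fermt1 (kindlin-1), the kindlin of epithelial cells, at -1.21 ± 0.32 (adjusted p = 0.0158, edgeR), named because it was the only adaptor called lower. Ilk, the integrin-linked kinase, had 0 to 2 reads in each library and was not tested. It overlaps 2 other genes of the table. Of 14 basement membrane partners, 8 were called higher and 0 lower, against 24.5% and 19.6% of all genes. Among those called, Col18a1 was at 3.60 ± 0.32, Col4a1 at 2.60 ± 0.30 and Col4a2 at 2.38 ± 0.27. Of 4 hemidesmosome partners 0 were called in either direction (edgeR), with 1 higher and 0 lower at an unadjusted p under 0.05, against 28% and 25% of all genes. Cd151, a tetraspanin bound to laminin-binding integrins, was nearest to the threshold (0.27 ± 0.11, adjusted p = 0.0841), followed by Dst (0.27 ± 0.16) and Col17a1 (0.76 ± 0.66, adjusted p = 0.371, edgeR).

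The comparison of CDs with Model asks whether the carbon dots changed these chains under DSS. No member was called in either direction (edgeR, smallest adjusted p = 0.891, that of Lama4), as was the case over all genes, of which 0% were called. At an unadjusted p under 0.05, 7 members were lower and 0 higher, against 3.75% and 1.53% of all genes. These were Itga1, Itgav, Lama1, Lama4, Lama5, Lamb1 and Lamc1. DESeq2 called 0 members, and over its 15561 genes 5 higher and 46 lower. Limma called 0 members and 0 of all genes. The median log2 difference was -0.10 over the 36 members, against 0.02 over all genes, and 22 members were below 0 and 14 above. Of the 11 laminins 10 were below 0, with a median of -0.35. Fibroblast and endothelial markers were below 0 in 6 of 6 each (medians -0.38 and -0.18), and basement membrane partners in 10 of 14. Smooth muscle markers were above 0 in 6 of 6 (median 0.70), and epithelial markers in 8 of 8 (median 0.26). The part of these markers in the laminin differences was not tested.

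The largest laminin differences were of moderate size with wide intervals. Lama4 had a log2 difference of -0.63, CDs minus Model (95% interval -1.04 to -0.23, unadjusted p = 0.00629, edgeR), and its groups did not overlap. Lama1 differed by -0.82 (95% interval -1.48 to -0.17, unadjusted p = 0.0195, edgeR), and Itgav by -0.48 (95% interval -0.84 to -0.12). Lamc3 was the only member for which every CDs library was above every Model library (0.65, interval -0.12 to 1.42). Groups did not overlap in 7.99% of all genes, and in 2 of the 36 members. The 7 leukocyte integrins tested ran from -0.13 to 0.55, with a median of 0.14, for example Itgam at 0.01 (-0.73 to 0.75) and Itgb2 at 0.26 (-0.46 to 0.98). Both intervals include differences in either direction.

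This comparison depended on which libraries entered. With Model 1, Model 3 and CDs 1 left out because of their pancreatic reads, 10 members were called lower in CDs and 0 higher (edgeR). Over the 15411 genes of that fit, 489 were called lower and 752 higher. That fit sets CDs 2 and CDs 3 against Model 2 alone, which was the highest Model library for most laminins and for the fibroblast and neutrophil sums, and assumes that the lone library varies like the other groups. The 10 were Itga1, Itga5, Itgav, Itgb3, Lama1, Lama2, Lama4, Lama5, Lamb1 and Lamc1.

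Against Blank, CDs had 25 members called higher and 1, Itga2, called lower (edgeR; 21.8% and 13.8% of all genes), with a median log2 fold change of 0.88 against 0.01 over all genes. Both comparisons against Blank use the same Blank libraries, so their values are given side by side only. The higher calls covered 6 of 7 leukocyte integrins, both platelet integrins, 9 of 11 stromal and shared integrins, 8 of 11 laminin chains and 0 of 5 epithelial integrins. Lama1 was at 3.42 ± 0.33 in Model and 2.60 ± 0.32 in CDs, and Lamb1 at 1.92 ± 0.23 and 1.41 ± 0.22. Itgam was at 2.94 ± 0.36 and 2.95 ± 0.36, Itgb2 at 2.20 ± 0.34 and 2.46 ± 0.34, and Itgal at 1.61 ± 0.41 and 2.16 ± 0.42. Itga6 was at -0.53 ± 0.18 and -0.36 ± 0.18, not called in CDs (adjusted p = 0.142, edgeR). The partner lists gave 11 of 12 ligands higher, 9 of 17 adaptors higher and Fermt1 lower, 7 of 14 basement membrane partners higher and 0 of 4 hemidesmosome partners.

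Besides those of Itgb7 and Itga2 given above, further calls in CDs against Blank were lost when 1 library was left out. That of Itga10 (adjusted p = 0.0403, edgeR) was lost in each of the 9 such fits. That of Itga7 (adjusted p = 0.0407, edgeR) was lost without Blank 1, Blank 2, CDs 2, CDs 3 or any Model library. That of Lama5 was lost without Blank 1 or Blank 3. Model libraries enter this comparison through the shared fit. Without Blank 2 and Blank 3, the libraries with prostate transcripts, Blank 1 is the only Blank library. Higher calls among members were then 12 in Model and 0 in CDs against Blank (edgeR), and over the 15460 genes of that fit 1218 and 357. In CDs, Itgb2 was then at 1.86, Itgal at 1.53 and Itgb7 at 0.70 on the log2 scale. Itgav at 1.06, Lamb1 at 1.37 and Lamc1 at 1.39 kept nearly the size they had with all libraries (1.08, 1.41 and 1.40), and were not called.

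Some members share their span with other genes of the table, and how reads in shared exons were counted is not given. Of the 37, 8 overlap another gene. Itgam overlaps a predicted gene on its strand, Gm49368, over 55809 bases, nearly its whole span. Itga1 overlaps Pelo and the predicted gene Gm49395 on its strand, and Itga10 overlaps the predicted gene Gm42957 on its own. Levels of these 3 members are uncertain for that reason, and no ratio between partners with them is given. They enter the sum behind the alpha chain shares, where Itgam held 5.81% and Itga1 7.601% in Model on average. Itgae, Itga4, Itga7, Itgad and Lamb3 overlap genes on the other strand, and without strand information reads from both cannot be told apart.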

How the data were processed

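Colon RNA was extracted with Trizol, captured on poly-T beads and copied with random primers, per the labels' protocols, which hold no strand-marking step. The submitters' processing notes name fastp 0.22.0, HISAT2 2.1.0 and HTSeq 0.9.1. They and the labels name no annotation or strand setting, and no genome build. The authors deposited raw read counts per gene and FPKM in 1 table. FPKM was used only in an alternative.

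Groups come from the sample titles. Counts of all 9 libraries entered 1 edgeR 4.0.16 quasi-likelihood fit (R 4.3.3) with TMM scaling and filterByExpr, which left 14921 of 21959 genes. P-values were adjusted by Benjamini-Hochberg over all of them, and an adjusted p under 0.05 is a call. SE is the absolute log2 fold change over the square root of F. CPM are TMM-scaled, and levels per kilobase divide CPM by the deposited gene length. The fit was tested on simulated data. Between-group shares and ratios have no test. P-values set the difference between groups against the spread between libraries within groups, estimated over all 9 libraries. Floors cover counting error only.

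The members, classes and partner and marker lists were chosen with earlier results of these data known. The members were given by class, except that the values of 1 are not reported here, though it stays in the counts and medians. Values by library were given for the members of each class with the smallest p, up to 4 by the Model and Blank comparison and up to 2 by that of CDs and Model, and 3 genes of each partner list were named by p. Alternatives were the replicate block, leaving out libraries, other scalings, no filter, DESeq2 1.42.0 and limma 3.58.1.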

Additional observations from a re-analysis of the deposited data

How the results depend on the processing

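Of the counts of called members, the 24 higher in Model than in Blank became 21 to 24 when 1 library was left out, and 12 without Blank 2 and Blank 3. The 1 lower, Itga6, became 0 to 1, and was 0 with library totals, with limma at either pseudocount (1 and 0.1), and without Blank 2 and Blank 3. The 25 higher in CDs than in Blank became 22 to 23 with 1 library left out, and 0 without Blank 2 and Blank 3. The 1 lower, Itga2, became 0 to 2, was 0 with limma at either pseudocount, 0 without Blank 2 and Blank 3, 0 without Blank 1 and CDs 1 (an alternative chosen after seeing the data), and 2 without Model 1, Model 3 and CDs 1. The 0 lower in CDs than in Model stayed at 0 in every fit with 1 library left out, and became 10 without Model 1, Model 3 and CDs 1. Fits without Blank 2 and Blank 3, or without Model 1 and Model 3, leave 1 library in that group. The replicate numbers were not taken to pair the libraries, since correlations of deviations between libraries of the same number ran from -0.37 to 0.21. With the replicate number as a block, the calls were 25 higher and 1 lower in Model, 24 and 1 in CDs against Blank, and 0 in CDs against Model. Itgb7 was gained in Model (adjusted p = 0.0473, edgeR) and Itga10 lost in CDs. No called member changed sign in any of the 21 alternatives. Of 756 values in each comparison, uncalled ones that did numbered 16 for Model against Blank, 53 for CDs against Model and 23 for CDs against Blank. Depth limits Itgad, Itga10, Itga2b and Lamc3, the members with the fewest reads. The cause of these differences was not tested.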
